A study of Mus musculus with 6 samples.

Results

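The genes described here move fatty acids into a cell and decide whether they are burned or stored. The 10 genes were chosen by name and found by symbol among the 28892 genes of the expression table: the scavenger receptor Cd36, the fatty acid binding proteins Fabp3, Fabp4 and Fabp5, the lipase Lpl, the acyl-CoA synthetase Acsl1, the carnitine palmitoyltransferases Cpt1a and Cpt1b, the lipid droplet protein Plin2 and the nuclear receptor Pparg. They were compared between C2C12 Myod1-/- cells and C2C12 WT cells. C2C12 is an immortalised mouse myoblast line that goes back to thigh satellite cells of a 2-month-old female of the strain C3H. In the Myod1-/- cells the gene of the muscle transcription factor MyoD had been disrupted with CRISPR/Cas9 delivered by lentivirus and puromycin selection, whereas no such vector is named for the WT cells. The knockout cells were 1 clone with a homozygous deletion, and both genotypes were kept for 6 days in the serum-free medium Ndiff227 before RNA was taken, with 3 libraries of each genotype. In that medium WT cells formed thin myotube-like structures and Myod1-/- cells formed floating spheres, so genotype, clone and differentiation state cannot be told apart in any difference below.

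Long-chain fatty acids reach a cell as albumin-bound acids or are cut from lipoprotein triglycerides by lipoprotein lipase (Lpl). CD36 and the FATP transporters help them across the plasma membrane, small cytosolic FABPs bind them, and acyl-CoA synthetases such as ACSL1 trap them as acyl-CoA. Acyl-CoA is then either handed to carnitine by CPT1 at the outer mitochondrial membrane, the step that commits it to beta-oxidation, or built into triglycerides that are kept in droplets coated with perilipins such as PLIN2. PPAR-gamma, encoded by Pparg, is a ligand-activated receptor best known as the main regulator of fat cell formation, and Cd36, Fabp4, Lpl and Plin2 are known targets of PPAR receptors. Skeletal muscle typically uses FABP3 and CPT1B, whereas FABP4 is typical of fat cells and CPT1A is the liver and general form.

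Levels are given in FPKM, a fragment count scaled to the length of the gene and to the mapped fragments of the library, as the authors made them. Summed FPKM were 289982 to 293631 in Myod1-/- libraries and 297388 to 315742 in WT libraries, and the mitochondrially encoded share was 5.07% to 5.25% in Myod1-/- and 7.32% to 8.49% in WT libraries. The smallest steps in the values place the depths of the libraries within 1.02 to 1.13 times that of WT replicate 1. The targeted gene, Myod1, measured 0.0614, 0 and 0 FPKM in Myod1-/- libraries, against 17.3, 25.8 and 27.7 FPKM in WT libraries. The 10 myotube markers checked, from Myog to Ckm, were all lower in Myod1-/- cells, with summed FPKM of 0.296 to 0.714 in Myod1-/- and 2912 to 3095 in WT libraries. Differences were tested with limma in 14045 genes that averaged 0.5 FPKM or more, and 61.1% of them passed an adjusted p of 0.05, 27.9% as higher and 33.3% as lower in Myod1-/- cells. The balance of the directions depends on scaling: 3914 genes were higher and 4670 lower as reported, against 4275 and 4278 with median centring and 4441 and 4188 with quantile normalization. The labels do not say whether the libraries of a genotype came from separate cultures, so p-values measure the spread between these libraries, which may be technical. In such bulk RNA, fewer cells that express a gene and less of its RNA in each cell cannot be told apart.

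Of the 10 genes, all of which passed the filter on low values, 3 rose in Myod1-/- cells (Plin2, Pparg and Acsl1), 5 fell (Cd36, Lpl, Fabp3, Fabp5 and Cpt1a) and 2 did not pass the test (Fabp4 and Cpt1b). This is 80% called, beside 61.1% of all genes tested, so that the number of called genes alone says little about the set. The libraries of the genotypes did not overlap for 8 of the 10 genes, beside 67.9% of all genes tested. Cd36 and Lpl, both counted as called, passed the filter through their WT libraries alone. Their means in Myod1-/- cells were 0.121 and 0.370 FPKM, under the 0.5 FPKM of the filter. At the thresholds of the study, a log2 fold change of 1 or more with an unadjusted p up to 0.05, the same 3 genes were higher (8.67% of all genes tested were) and 5 were lower (11.7% of all genes tested were), with Cpt1b in the place of Cpt1a. The split followed the roles only in part. The droplet coat, the receptor and the synthetase were higher, while the membrane receptor, the lipase, a pair of the 3 binding proteins and CPT1A were lower.

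**Figure D1:**
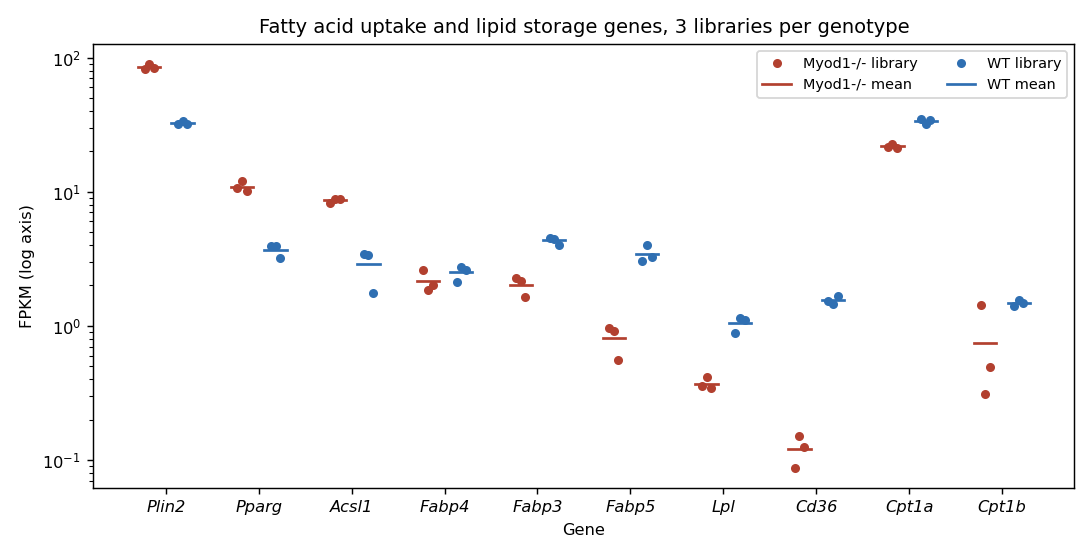
FPKM of the 10 genes in each library (log axis), Myod1-/- libraries left in red and WT libraries right in blue, with a bar at the mean of 3. Plin2, Pparg and Acsl1 lie higher in every Myod1-/- library, Cd36 lies lowest of the set in Myod1-/- cells at 0.0876 to 0.150 FPKM, and the libraries of Fabp4 and Cpt1b overlap.

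Plin2, which encodes the perilipin that coats lipid droplets in most cell types, had the highest level of the set in Myod1-/- cells. It lies on the minus strand at chr4:86648386-86670060 (GRCm38, as the deposited table gives it). Its level was 82.4, 89.3 and 83.3 FPKM in the Myod1-/- libraries, against 31.8, 33.6 and 31.8 FPKM in the WT libraries. The genotypes did not overlap and each was tight, with means of 85.0 ± 3.73 FPKM in Myod1-/- and 32.4 ± 1.02 FPKM in WT cells (SD, n = 3 each). The ratio of the means was 2.62, and the log2 fold change was 1.39 (SE 0.05, adjusted p = 1.68e-06).

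Pparg, at chr6:115360951-115490399 on the plus strand, was expressed in both genotypes. It measured 10.7, 11.9 and 10.1 FPKM in Myod1-/- libraries and 3.95, 3.96 and 3.18 FPKM in WT libraries. All Myod1-/- libraries lay above all WT libraries, and the mean was 2.95 times as high in Myod1-/- cells. The log2 fold change was 1.54 (SE 0.11, adjusted p = 4.12e-05).

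Acsl1, at chr8:46471037-46536051 on the plus strand, encodes the long-chain acyl-CoA synthetase that dominates in fat and heart. Its level was 8.24, 8.83 and 8.77 FPKM in Myod1-/- libraries, against 3.44, 3.40 and 1.77 FPKM in WT libraries. WT replicate 3 stood below the other WT libraries, and even the highest WT library stayed below every Myod1-/- library. The log2 fold change was 1.61 (SE 0.25, adjusted p = 0.00158), and with WT replicate 3 left out it was 1.31.

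The promoter windows of these genes, 250 bases before to 50 bases after the RefSeq start site (GRCm38.p6), are shown for 4 genes that differed between the genotypes. MyoD binds sites of the E-box form, CANNTG. The letters of each match to that form are in capitals, whether or not MyoD binds there. Windows were listed for 6 of the 10 genes, and Fabp4, Fabp5, Lpl and Cpt1b had none. For Pparg the window shown is that of the downstream start, where the transcript Pparg-201 begins. Pparg-201 was at 0 FPKM in the 3 WT libraries and at 0.0320, 2.02 and 0.588 FPKM in Myod1-/- libraries. The first Pparg window, which covers the start of Pparg-202, is not shown and had no E-box, and the second had 1. The Cd36 window covers the start of no listed Cd36 transcript. The nearest start is that of Cd36-206, at chr5:17835717, and Cd36-203 begins far upstream, at chr5:17888747. The form that held most of the Cd36 value in Myod1-/- libraries begins at chr5:17849792, also upstream of the window.
Plin2, minus strand, chr4:86670010-86670309: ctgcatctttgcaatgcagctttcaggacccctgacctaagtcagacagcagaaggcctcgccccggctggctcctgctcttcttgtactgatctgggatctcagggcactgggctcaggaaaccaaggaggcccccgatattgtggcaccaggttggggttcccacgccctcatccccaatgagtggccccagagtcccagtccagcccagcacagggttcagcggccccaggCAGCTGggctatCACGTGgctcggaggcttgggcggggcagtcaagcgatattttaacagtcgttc
Pparg, the downstream start, plus strand, chr6:115421816-115422115: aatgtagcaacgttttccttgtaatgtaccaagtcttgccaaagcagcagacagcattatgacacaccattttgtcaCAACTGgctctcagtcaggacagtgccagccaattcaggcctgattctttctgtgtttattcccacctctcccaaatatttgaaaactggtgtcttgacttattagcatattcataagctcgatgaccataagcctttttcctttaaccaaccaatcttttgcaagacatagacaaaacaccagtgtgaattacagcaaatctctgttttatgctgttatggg
Cd36, minus strand, chr5:17835847-17836146: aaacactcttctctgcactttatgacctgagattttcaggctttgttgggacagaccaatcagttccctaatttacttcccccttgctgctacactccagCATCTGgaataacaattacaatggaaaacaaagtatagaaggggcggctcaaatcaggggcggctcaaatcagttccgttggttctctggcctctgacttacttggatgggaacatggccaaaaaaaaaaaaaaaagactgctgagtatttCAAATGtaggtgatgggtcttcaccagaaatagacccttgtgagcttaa
Cpt1a, plus strand, chr19:3323051-3323350: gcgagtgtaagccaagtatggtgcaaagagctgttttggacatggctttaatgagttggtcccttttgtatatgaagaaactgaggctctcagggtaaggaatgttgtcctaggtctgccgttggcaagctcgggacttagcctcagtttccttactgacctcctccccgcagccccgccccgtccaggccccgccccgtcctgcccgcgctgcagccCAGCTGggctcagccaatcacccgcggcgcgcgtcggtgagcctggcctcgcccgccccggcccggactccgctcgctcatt

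An E-box, searched as CANNTG on both strands, was found in 7 of the 9 windows of the 6 genes and in 72.3% of all 32851 RefSeq windows of the same length, so its presence sets none of them apart. The form CAGCTG, itself an E-box, was found in the windows of Plin2 and Cpt1a and in the second window of Acsl1, and in 16.3% of all windows. In the Plin2 window it starts 16 bases before the start site, and a CACGTG starts 4 bases before it. The second Acsl1 window is at the start of the transcript Acsl1-203, which was at 0 to 0.0172 FPKM in the libraries. The first, at the start of the main transcript Acsl1-201, had no E-box. Plin2 was higher and Cpt1a lower in Myod1-/- cells, so the windows with CAGCTG include genes of either direction. The core motif of nuclear receptors, AGGTCA, searched on both strands and overlapping no E-box in these windows, was found in the windows of Plin2, Cd36 and Cpt1a and in the first and second windows of Pparg, and in 16.3% of all windows. Its direct repeat with a spacer of 1 base, the ideal DR1 element for PPAR with its partner RXR, was in none of the 9 windows and in 0.0396% of all windows. These are matches of letters in short windows and no measurements of binding.

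Among the genes of uptake, Cd36 was lower in Myod1-/- cells. CD36 is the scavenger receptor through which muscle and fat cells take up long-chain fatty acids, and its gene spans chr5:17781690-17888801 on the minus strand. Cd36 was at 0.0876, 0.150 and 0.125 FPKM in the Myod1-/- libraries and at 1.53, 1.45 and 1.66 FPKM in the WT libraries. The level was low in both genotypes, and every Myod1-/- library lay far below every WT library. The mean was 12.8 times as high in WT cells, and the log2 fold change on the FPKM + 0.1 scale was -2.91 (SE 0.18, adjusted p = 2.14e-05). The size of that fold rests on the added constant: it was -1.18 with a constant of 1 and -3.60 with 0.01, and Cd36 passed the test with each. Its fold was the largest of the set with the added 0.1 but not with 1, where Fabp5, Pparg, Acsl1 and Plin2 differed more.

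Lpl, which encodes the lipase that releases fatty acids from circulating triglycerides, lies at chr8:68880491-68907448 on the plus strand. It was at 0.355, 0.413 and 0.341 FPKM in Myod1-/- libraries, against 0.883, 1.14 and 1.10 FPKM in WT libraries. The genotypes did not overlap, and the log2 fold change was -1.28 (SE 0.17, adjusted p = 6.83e-04). Lpl and Cd36 thus fell together at low levels, with means of 0.370 and 0.121 FPKM in Myod1-/- cells, while Plin2 stood at 85.0 FPKM in the same libraries.

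The 3 binding proteins did not behave alike. Fabp5, the epidermal type, lies at chr3:10012548-10016607 and was at 0.969, 0.917 and 0.554 FPKM in Myod1-/- libraries, against 3.02, 3.98 and 3.25 FPKM in WT libraries. No library overlapped, the mean was 4.20 times as high in WT cells, and the log2 fold change was -1.97 (SE 0.22, adjusted p = 3.28e-04). Fabp3, the heart and muscle type, at chr4:130308595-130315463, was at 2.27, 2.14 and 1.63 FPKM in Myod1-/- libraries, against 4.55, 4.43 and 4.01 FPKM in WT libraries. Its mean was 2.15 times as high in WT cells, and its log2 fold change was -1.08 (SE 0.14, adjusted p = 6.15e-04). Fabp4, the fat cell type, lies close to Fabp5 at chr3:10204088-10208576 and was at 2.63, 1.86 and 2.03 FPKM in Myod1-/- libraries and 2.13, 2.76 and 2.63 FPKM in WT libraries. The libraries of the genotypes overlapped, and the log2 fold change of -0.20 had an interval of -0.59 to 0.19 (95%, adjusted p = 0.313).

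**Figure D2:**
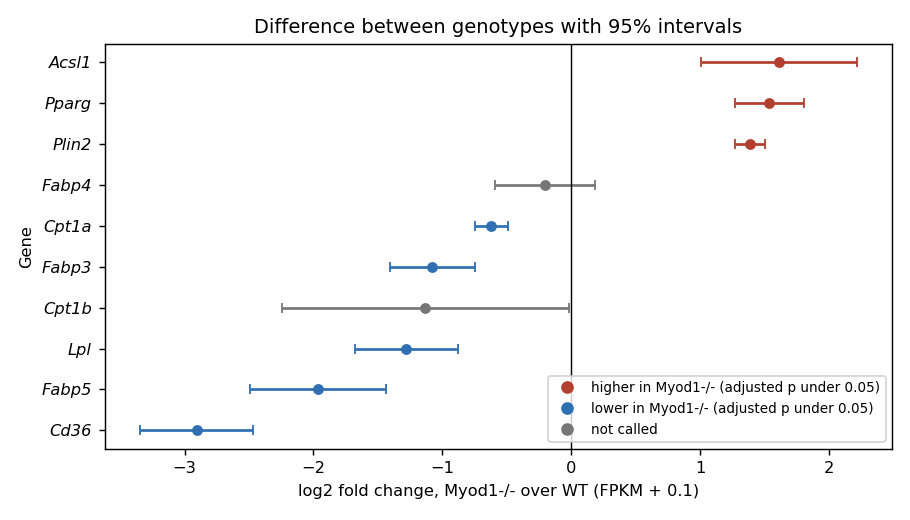
Log2 fold change of each gene, Myod1-/- over WT on the FPKM + 0.1 scale, with the 95% interval from limma (3 libraries per genotype). Plin2, Pparg and Acsl1 lie at 1.39 to 1.61, the 5 genes that fell lie at -0.62 to -2.91, and the grey points, Fabp4 and Cpt1b, did not pass an adjusted p of 0.05.

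Fabp5 and Fabp3 have processed pseudogenes, copies made from the spliced RNA, with nearly the same sequence. The pseudogene Gm6166 matches the Fabp5 transcript at 98.3% of 409 nt and was listed at 2.51, 2.56 and 2.29 FPKM in Myod1-/- libraries, against 9.91, 11.9 and 11.3 FPKM in WT libraries. A further copy, Gm14328 (97.3% of 408 nt), was at 0.560, 0.439 and 0.530 FPKM in Myod1-/- libraries and 1.29, 1.35 and 1.51 FPKM in WT libraries. Fabp5 and both copies fell, with log2 fold changes of -2.12 for Gm6166 and -1.28 for Gm14328 (adjusted p = 4.07e-06 and 3.40e-04). Reads from the shared stretch could be counted for any of them, so the level of Fabp5 is uncertain, and how reads were divided was not tested. Fabp3-ps1, which matches Fabp3 at 99.3% of 402 nt, was at 0.426, 0.297 and 0.215 FPKM in Myod1-/- libraries and 0.539, 1.40 and 0.340 FPKM in WT libraries, well below Fabp3 itself. The 3′ end of Fabp3 also overlaps Zcchc17 on the other strand, and no strand setting of the counting is given in the sources used here. Zcchc17 fell as well, with a log2 fold change of -0.64 (adjusted p = 3.08e-04).

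The CPT1 genes differed in level and in certainty. Cpt1a, at chr19:3323301-3385732 on the plus strand, was at 21.6, 22.6 and 21.3 FPKM in the Myod1-/- libraries, against 34.7, 31.7 and 34.5 FPKM in the WT libraries. The genotypes were well apart although the difference was the smallest of the 5 genes that fell, with a mean 1.54 times as high in WT cells (log2 fold change -0.62, SE 0.05, adjusted p = 9.16e-05). Cpt1b, the muscle form, at chr15:89416405-89425863 on the minus strand, was at 1.42, 0.310 and 0.496 FPKM in Myod1-/- libraries and 1.41, 1.55 and 1.48 FPKM in WT libraries. Myod1-/- replicate 1 lay at the WT level and the other Myod1-/- libraries lay well below it. The log2 fold change of -1.13 (SE 0.46) had an unadjusted p of 0.0470 and an adjusted p of 0.0728 in limma, and with Myod1-/- replicate 1 left out it was -1.67 (adjusted p = 0.00150).

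A read-through gene, listed as AC137513.1, runs on the same strand from the neighbouring choline kinase gene Chkb to the end of Cpt1b and shares 1841 nt of identical sequence with the Cpt1b transcript. It was at 0.895, 2.89 and 1.59 FPKM in Myod1-/- libraries and 0.231, 1.15 and 1.26 FPKM in WT libraries (adjusted p = 0.205). The Myod1-/- library with the highest Cpt1b thus had the lowest AC137513.1 of its genotype. Added together, the FPKM of both genes came to 2.31, 3.20 and 2.08 in Myod1-/- libraries and 1.64, 2.70 and 2.74 in WT libraries, which overlap. Chkb, which the read-through gene also overlaps, averaged 11.2 FPKM in Myod1-/- and 10.1 FPKM in WT cells. The read-through value may therefore hold reads of Chkb, and the sum is no total of Cpt1b. The values of Cpt1b are therefore uncertain in every library, and how reads were divided between the overlapping genes was not tested.

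**Figure D3:**
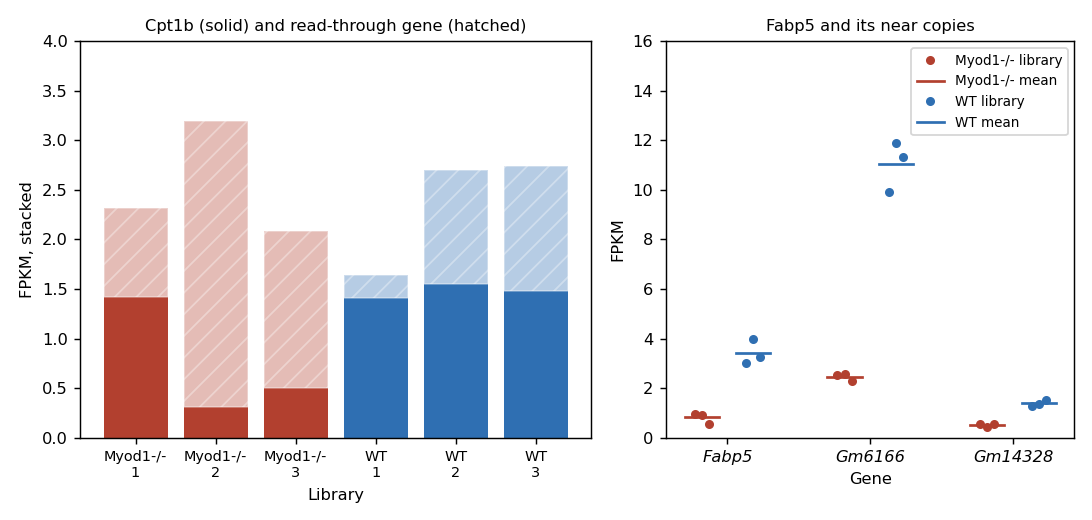
Left, FPKM of Cpt1b (solid) and of the read-through gene AC137513.1 (hatched) stacked for each library, Myod1-/- in red and WT in blue. The solid part ranges from 0.310 to 1.42 in Myod1-/- libraries, whereas the stacks of the genotypes overlap. Right, FPKM of Fabp5 and its pseudogenes by library with a bar at the mean of 3, all lower in the Myod1-/- libraries.

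The transcript table shows which forms carried these levels. Plin2 was mostly its full-length transcript Plin2-201, at 143, 156 and 145 FPKM in Myod1-/- libraries and 57.5, 60.4 and 56.9 FPKM in WT libraries. Acsl1-201 made up 96.0%, 96.2% and 95.9% of the summed transcript FPKM of Acsl1 in Myod1-/- libraries, against 97.7%, 89.1% and 67.1% in WT libraries. WT replicate 3, which had the lowest Acsl1 level, was also the library with the lowest share of that form. Cd36 was spread over several forms. Cd36-206 was at 0, 0 and 0.00556 FPKM in Myod1-/- libraries and at 1.41, 0.375 and 1.88 FPKM in WT libraries, and Cd36-203 was at 0 in the Myod1-/- libraries and at 0.368, 1.28 and 0.204 FPKM in WT libraries. Another protein-coding form was at 0.0914, 0.130 and 0.109 FPKM in Myod1-/- libraries, most of the little that was measured there, and at 0.227, 0 and 0 FPKM in WT libraries, so that its libraries overlapped. Shares of transcripts are estimates from shared reads and were not tested.

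Pparg has an upstream start, for the shorter protein PPAR-gamma1, and a downstream start, for PPAR-gamma2, the form typical of fat cells. Pparg-201, which begins at the downstream start and encodes 505 amino acids, was listed at 0.0320, 2.02 and 0.588 FPKM in Myod1-/- libraries and at 0 in the 3 WT libraries. Pparg-202, of 475 amino acids, was at 12.5, 14.0 and 0.704 FPKM in Myod1-/- libraries and 3.40, 2.97 and 0.995 FPKM in WT libraries. Pparg-204, also of 475 amino acids, was at 0.170, 0.775 and 0.281 FPKM in Myod1-/- libraries and 0, 2.77 and 2.65 FPKM in WT libraries. These forms vary far more between libraries than the gene does. The listed transcripts account for 10.6% of the gene value in Myod1-/- replicate 3 and for 98.7% in replicate 2, so no share of PPAR-gamma2 can be read from them.

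Gene values here are per total exon length, which includes long transcripts with retained introns, and this lowers the gene value where the abundant transcript is short. Fabp4-201, the spliced Fabp4 RNA, averaged 9.73 FPKM in Myod1-/- and 11.1 FPKM in WT cells, and the summed transcript FPKM of Fabp4 was 4.48 to 4.70 times its gene value. Fabp5-201 was at 3.15, 3.18 and 1.37 FPKM in Myod1-/- and 10.7, 14.1 and 11.4 FPKM in WT libraries. Comparisons between genotypes use the same length for both, whereas the order of the genes depends on it.

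On the gene values, per exon length, the order in Myod1-/- cells was Plin2, Cpt1a, Pparg, Acsl1, Fabp4, Fabp3, Fabp5, Cpt1b, Lpl and Cd36. Neighbours whose libraries overlapped were Fabp4 with Fabp3, Fabp5 with Cpt1b, and Cpt1b with Lpl. In WT cells the order was Cpt1a, Plin2, Fabp3, Pparg, Fabp5, Acsl1, Fabp4, Cd36, Cpt1b and Lpl. There Cpt1a and Plin2 overlapped, as did the run of Pparg, Fabp5, Acsl1 and Fabp4, and Cd36 with Cpt1b. By gene value Plin2 and Cpt1a stood at 85.0 and 21.8 FPKM in Myod1-/- cells and at 32.4 and 33.6 FPKM in WT cells. By their main transcripts, Plin2-201 and Cpt1a-201, they stood at 148 and 21.6 FPKM in Myod1-/- cells and at 58.3 and 33.6 FPKM in WT cells, so that they were near each other in WT cells by gene value and not by main transcript. Summed over the 10 genes, FPKM were 129 to 138 in Myod1-/- libraries and 85.4 to 88.0 in WT libraries, and most of each Myod1-/- sum was Plin2.

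The genes whose values were nearest to those of Plin2 over the 6 libraries, by Euclidean distance of log2(FPKM + 0.1) among the genes tested, were the growth factor gene Fgf7 (distance 0.229), the lipid phosphatase gene Plpp3 (0.230) and the small GTPase gene Rab31 (0.245). Fgf7 averaged 85.2 FPKM in Myod1-/- and 35.2 FPKM in WT cells, and Plpp3 87.2 FPKM in Myod1-/- and 34.9 FPKM in WT cells. Likeness here means like level and like difference in 6 libraries.

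Genes of neighbouring steps were taken from 9 lists. Of all genes tested, 27.9% were higher and 33.3% lower. In uptake and lipoprotein lipolysis, of 11 genes tested, 5 rose, 4 fell and 2 did not pass, with a median log2 fold change of -0.04. Lipg, the gene of the secreted endothelial lipase, was at 68.4, 72.6 and 70.1 FPKM in Myod1-/- libraries and 2.28, 2.75 and 2.99 FPKM in WT libraries. All Myod1-/- libraries lay far above all WT libraries, and the log2 fold change came to 4.68 (SE 0.10, adjusted p = 2.18e-07). Slc27a1, which encodes the transporter FATP1, was at 58.8, 49.2 and 59.5 FPKM in Myod1-/- libraries, against 12.4, 15.1 and 14.4 FPKM in WT libraries (log2 fold change 1.99, adjusted p = 9.55e-06). Vldlr, the receptor for triglyceride-rich lipoproteins, averaged 0.0120 ± 0.00208 FPKM in Myod1-/- and 1.93 ± 0.205 FPKM in WT cells (SD, n = 3 each, log2 fold change -4.18, adjusted p = 4.57e-06). Uptake genes therefore did not move together: Slc27a1 and Lipg rose where Cd36, Lpl and Vldlr fell. The size of the Vldlr fold rests on the added 0.1, and Vldlr passed the filter through its WT libraries alone. The endocytic receptor Lrp1 and the lysosomal lipase Lipa also rose, with log2 fold changes of 0.83 and 0.48. Angptl4, whose secreted protein inhibits lipoprotein lipase, averaged 3.80 ± 0.556 FPKM in Myod1-/- and 1.96 ± 0.0651 FPKM in WT cells (SD, n = 3 each, 0.91), so that it rose where Lpl fell. The remaining transporter genes Slc27a3 and Slc27a4 and Got2, whose protein also binds fatty acids at the membrane, fell by 0.43 to 0.55 on the log2 scale.

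In mitochondrial import and beta-oxidation the genes that passed the test all fell. Of 24 genes tested, 19 fell, none rose and 5 did not pass (Cpt1c, Echs1, Eci1, Acacb and Mlycd). The list had 79.2% of its genes lower, beside 33.3% of all genes tested, and a median log2 fold change of -0.52, beside -0.05 over all genes. Pdk4, whose kinase shuts off pyruvate entry when fat is burned, was at 3.85, 3.53 and 3.77 FPKM in Myod1-/- libraries and 35.9, 34.4 and 36.8 FPKM in WT libraries. No library overlapped and the log2 fold change was -3.23 (SE 0.06, adjusted p = 1.04e-07). Ucp2, a mitochondrial carrier, averaged 0.848 ± 0.106 FPKM in Myod1-/- and 5.86 ± 0.562 FPKM in WT cells (SD, n = 3 each). Slc25a20, the carrier that brings acylcarnitine through the inner membrane after CPT1, averaged 1.51 ± 0.0139 FPKM in Myod1-/- and 5.04 ± 0.241 FPKM in WT cells. The log2 fold changes were -2.65 for Ucp2 and -1.68 for Slc25a20. The genes of this list with the highest means fell less, with log2 fold changes of -0.88 for the electron transfer subunit Etfa, -0.71 for the very long-chain dehydrogenase Acadvl, -0.50 for the thiolase Acaa2 and -0.21 for Acadl. The mitochondrially encoded share of FPKM was lower in Myod1-/- libraries as well (5.07% to 5.25%, against 7.32% to 8.49% in WT libraries). With FPKM rescaled without mitochondrially encoded genes, 4404 of all genes tested were lower, in place of 4670. The count of this list after that rescaling is not reported here. Beyond scaling, a part of this share in the falls of the list was not tested.

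In the peroxisome, 5 of 9 genes tested fell and 2 rose. Abcd2, a transporter of very long-chain acyl-CoA, averaged 1.54 ± 0.0826 FPKM in Myod1-/- and 5.88 ± 0.276 FPKM in WT cells (SD, n = 3 each, log2 fold change -1.86). The multifunctional enzyme gene Hsd17b4 also fell (-0.60), and Abcd3 rose slightly (0.22, adjusted p = 0.00744). Acox3 and Crot fell (-0.19 and -0.36), and the thiolase genes Acaa1a and Acaa1b did not pass the test (0.08 and -0.25).

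The other acyl-CoA synthetases did not follow Acsl1 as a group. Of 9 synthetase and thioesterase genes tested, 3 rose and 4 fell. Acsbg1 averaged 9.69 ± 0.344 FPKM in Myod1-/- and 2.69 ± 0.288 FPKM in WT cells (SD, n = 3 each, log2 fold change 1.82), and Acsl5 and Acsl4 rose with log2 fold changes of 1.11 and 0.37. Acsl3 averaged 36.4 ± 0.348 FPKM in Myod1-/- and 64.5 ± 1.31 FPKM in WT cells (-0.82). Acss2, which makes acetyl-CoA from acetate in the cytosol, fell with a log2 fold change of -2.03. The thioesterase genes Acot2 and Acot9 fell (-0.94 and -0.38), and Acot7 and Acot13 did not pass the test (-0.11 and 0.23). Among other binding proteins, 4 were tested: Dbi and Acbd5 fell (-0.34 and -0.42), Acbd3 rose (0.24) and Scp2 did not pass (0.11). The falls of Dbi and Acbd5 had adjusted p of 0.0280 and 0.0326. The list had 1 lower gene without Myod1-/- replicate 1, Myod1-/- replicate 2 or WT replicate 1, and 0 without WT replicate 2 or WT replicate 3. It had 1 with median centring, quantile normalization or rescaling without mitochondrially encoded genes.

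Triglyceride synthesis went in either direction, with 4 of 14 genes higher and 6 lower. Gpat3, which starts glycerolipid synthesis at the endoplasmic reticulum, averaged 8.12 ± 0.390 FPKM in Myod1-/- and 2.41 ± 0.362 FPKM in WT cells (SD, n = 3 each, log2 fold change 1.72). At the last step, Dgat2 averaged 0.618 ± 0.124 FPKM in Myod1-/- and 2.17 ± 0.192 FPKM in WT cells (-1.68). Mogat2, which feeds monoacylglycerol into that step, averaged 0.977 ± 0.186 FPKM in Myod1-/- and 5.78 ± 0.175 FPKM in WT cells (-2.46). The acyltransferase genes Agpat3 and Agpat4 fell (-0.46 and -0.14), as did Agpat5 and Lpin3 (-0.42 and -0.51). Dgat1, the other enzyme of the last step, rose where Dgat2 fell, with 13.3 ± 0.712 FPKM in Myod1-/- and 9.21 ± 0.726 FPKM in WT cells (SD, n = 3 each, 0.53). Lpin2 and Gpat4 rose too (0.74 and 0.20), and Gpam, Agpat1, Agpat2 and Lpin1 did not pass.

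Among 14 lipid droplet and lipolysis genes tested, 4 rose, 5 fell and 5 did not pass (Cideb, Bscl2, Hsd17b11, Ldah and Rab18). The shares, 28.6% higher and 35.7% lower, were close to those of all genes tested (27.9% and 33.3%). Plin4, another perilipin, was at 2.19, 2.26 and 2.27 FPKM in Myod1-/- libraries, against 0.388, 0.420 and 0.395 FPKM in WT libraries (log2 fold change 2.22, adjusted p = 7.80e-06). With a WT mean of 0.401 FPKM, Plin4 passed the filter through its Myod1-/- libraries alone. Plin3, the perilipin of small droplets, fell slightly, with 50.7 ± 2.78 FPKM in Myod1-/- and 58.8 ± 4.55 FPKM in WT cells (SD, n = 3 each, -0.21, adjusted p = 0.0396). G0s2, which encodes an inhibitor of the triglyceride lipase ATGL, averaged 7.89 ± 0.719 FPKM in Myod1-/- and 27.9 ± 7.40 FPKM in WT cells (-1.78). Lipe, the hormone-sensitive lipase, averaged 0.905 ± 0.0871 FPKM in Myod1-/- and 2.17 ± 0.142 FPKM in WT cells (-1.18). The other genes that fell were Fitm2 (-0.67) and Pnpla2 (-0.45), which encodes ATGL itself. Hilpda, an inhibitor of ATGL, averaged 15.1 ± 0.114 FPKM in Myod1-/- and 7.69 ± 0.526 FPKM in WT cells (0.97), and the ATGL coactivator gene Abhd5 and the droplet protein gene Aup1 rose as well (0.77 and 0.35).

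Fatty acid synthesis and desaturation had 7 of 12 genes lower and 2 higher (58.3% and 16.7%, beside 33.3% and 27.9% of all genes tested), with a median log2 fold change of -0.48, beside -0.05 over all genes. The desaturase genes made up much of this: Fads2 was at 44.9, 43.4 and 46.4 FPKM in Myod1-/- libraries and 116, 116 and 120.4 FPKM in WT libraries (-1.39), Scd2 averaged 182 ± 2.89 FPKM in Myod1-/- and 325 ± 16.4 FPKM in WT cells (SD, n = 3 each, -0.84), and Fads1 and Scd1 fell by 0.82 and 0.31 on the log2 scale. Acaca, the carboxylase that makes malonyl-CoA, the inhibitor of CPT1, rose (0.89, adjusted p = 0.00213), and so did the elongase gene Elovl6 (0.40). Elovl5, Me1 and the regulator Srebf1 fell (-0.81, -0.68 and -0.64). Fasn, Acly and Elovl1 did not pass.

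**Figure D4:**
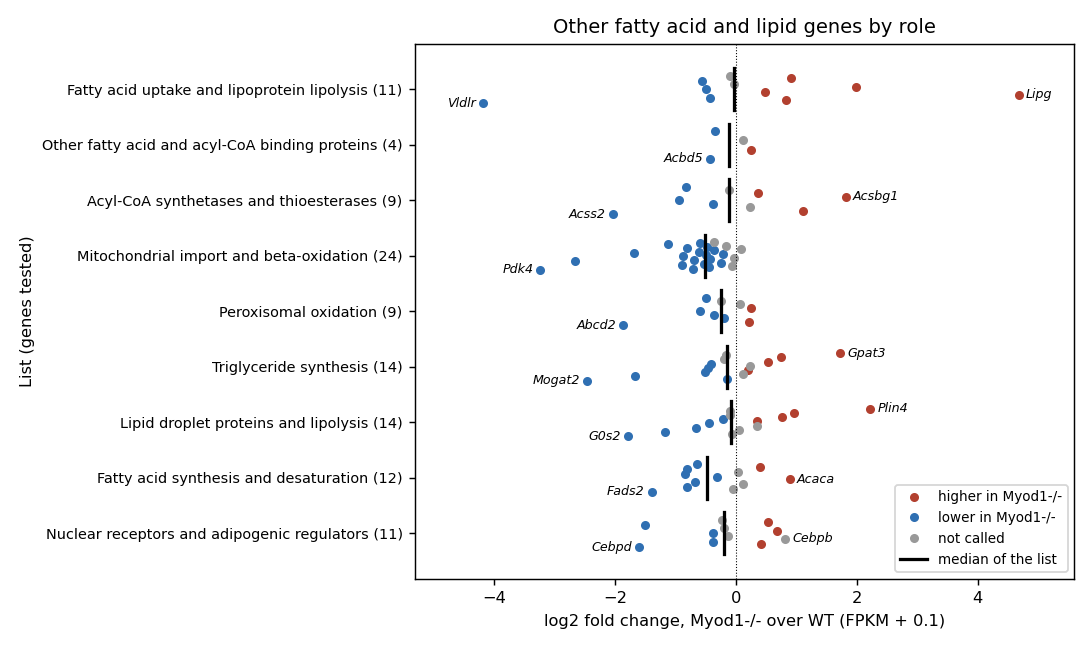
Log2 fold change (Myod1-/- over WT, FPKM + 0.1) of each tested gene in 9 lists, in red where higher, in blue where lower and in grey where not called, with a black bar at the median and the genes at the ends named where they lie well away from 0. Mitochondrial import and beta-oxidation has 19 genes lower and none higher, and the uptake list runs from Vldlr at -4.18 to Lipg at 4.68.

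Of the 11 nuclear receptor and adipogenic regulator genes tested, 3 rose, 4 fell and 4 did not pass. Ppard, the PPAR found in most tissues, was at 28.9, 25.8 and 26.2 FPKM in Myod1-/- libraries, against 17.0, 17.1 and 16.2 FPKM in WT libraries (log2 fold change 0.68, adjusted p = 9.22e-05). It exceeded Pparg in each library. Cebpa, the partner of PPAR-gamma in fat cell formation, went the other way, with 3.88 ± 0.268 FPKM in Myod1-/- and 11.3 ± 1.79 FPKM in WT cells (SD, n = 3 each, -1.51, adjusted p = 8.28e-05). Cebpd fell (-1.60, adjusted p = 0.0265) with WT libraries spread over 2.63, 8.35 and 9.36 FPKM, and Cebpb did not pass the test (0.82, adjusted p = 0.0885). The corepressor gene Ncor1 rose (0.53). The retinoid X receptors, the partners of PPARs, were split, with Rxrb higher (0.42) and Rxra lower (-0.37), while Nr1h2, Esrra and Klf15 did not pass.

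Pparg, Plin2, Fabp4, Cd36 and Lpl are also expressed by fat cells and macrophages, so markers of these cells were read in the same libraries. Of 8 adipocyte markers analysed, Adipoq, Cfd, Plin1, Adig, Aqp7 and Adrb3 were at 0 to 0.255 FPKM in every library of either genotype, and the tested ones, Lipe and Car3, fell. Car3, which muscle expresses too, averaged 0.138 FPKM in Myod1-/- and 103 FPKM in WT cells. The summed adipocyte markers were 1.09 to 1.43 FPKM in Myod1-/- and 104 to 110 FPKM in WT libraries, nearly all of the WT sum being Car3. Of 15 macrophage and leukocyte markers, 12 were under the filter. Ptprc, Csf1r and Adgre1, which define these cells, were at 0 to 0.304 FPKM in Myod1-/- and 0.0119 to 0.366 FPKM in WT libraries. Mpeg1 and Cd68 nevertheless rose, to 10.8 and 26.9 FPKM in Myod1-/- cells against 0.367 and 6.32 FPKM in WT cells, and Lyz2 fell. The summed macrophage markers were 39.2 to 41.1 FPKM in Myod1-/- and 8.90 to 10.5 FPKM in WT libraries. Most of each Myod1-/- sum was Cd68 and Mpeg1. A part of these markers in the rise of Plin2 and Pparg was not tested. The 8 endothelial markers analysed summed to 0.410 to 0.612 FPKM in Myod1-/- and 1.35 to 1.54 FPKM in WT libraries.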

How the data were processed

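RNA was sequenced from 3 C2C12 Myod1-/- and 3 C2C12 WT samples after 6 days in serum-free medium. Per the labels and the study's methods, the authors depleted rRNA, sequenced on a NovaSeq, used bcl2fastq, fastp and FastQC on the reads, mapped them on GRCm38 (HISAT2 or TopHat is named) and quantified with StringTie; versions and the gene annotation are not given in the sources used here. The deposited FPKM, per gene and per transcript, were used as the authors made them. FPKM are shares of a library, so a large change in abundant genes shifts the others, and read totals are unknown.

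The short column names were tied to samples through the study's supplementary table of changed genes, whose values matched 1 column each for all 3192 genes compared (relative tolerance 0.001). No column was left unassigned. The 14045 genes that averaged 0.5 FPKM or more were tested on log2(FPKM + 0.1) with limma 3.58.1 in R 4.3.3, by genotype alone with an intensity trend, and p-values were adjusted by Benjamini and Hochberg over all genes tested. The fit was tested on simulated data. Fold changes on this scale understate the change of low genes. Genes that are low in a single genotype, such as Car3, Plin4, Mpeg1 and the myotube markers, passed the filter through the other genotype alone. Near copies of the genes were found with BLAST 2.17.0 (at least 90% identity over 200 nt). Python 3.11.15 with pandas 2.3.3 and matplotlib 3.10.9 did the rest. Promoters are from RefSeq.

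The 10 genes, the lists and the tests were chosen with earlier results of these data known. Named list genes are the 4 with the highest mean and the 3 with the largest change in each list, and the 3 genes nearest to Plin2; others, among them those named to complete a count and the markers, were chosen after their values were seen. Some list genes are counted but are not reported here by name. Alternatives were the added constant, the filter, the scaling, the trend, the replicate number as a block, the thresholds of the study and each library left out.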

Additional observations from a re-analysis of the deposited data

How the results depend on the processing

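The direction and call of Plin2, Pparg, Acsl1, Fabp3, Fabp5 and Cpt1a held under the 15 alternatives other than the thresholds of the study, and those of Cd36 and Lpl under the 14 of these that kept them, since a filter of at least 1 FPKM on the mean removed both and left 3 genes of the set lower. Fabp4 turned from -0.20 to 0.000191 under quantile normalization (adjusted p = 0.999), uncalled in either case. Cpt1b passed the test without Myod1-/- replicate 1. With each library left out in turn, log2 fold changes ranged from 1.35 to 1.41 for Plin2, 1.44 to 1.59 for Pparg, 1.31 to 1.77 for Acsl1, -3.00 to -2.80 for Cd36, -1.38 to -1.21 for Lpl, -1.17 to -0.94 for Fabp3, -2.10 to -1.74 for Fabp5, -0.66 to -0.60 for Cpt1a, -0.34 to -0.10 for Fabp4 and -1.67 to -0.73 for Cpt1b. At the thresholds of the study, applied to the fit used here, 1218 of all genes tested were higher and 1640 lower. These are not the study's own counts. Same-numbered libraries did not deviate together (r of -0.10, -0.14 and -0.03), and an unlike-numbered pair reached 0.156. With 3 libraries per genotype, these values cannot settle whether replicate numbers mark a shared culture or batch. With the replicate block, 3559 genes were higher and 4280 lower. The set kept 3 higher and 5 lower, and the list of other binding proteins had 0 lower genes in place of 2. Median centring and quantile scaling moved the median log2 fold change of all genes from -0.05 to 0.00 and 0.03. Of the counts of the lists, 32 moved by over 1.5 times under an alternative, most at the thresholds of the study. The folds of Cd36, Lpl, Fabp5 and Cpt1b, each under 1 FPKM on average in Myod1-/- cells, move with the added constant.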

Other observations

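Several genes of the same pathways were under the filter on low values and show a difference in the libraries all the same; they were chosen after their values were seen and were not tested. Acsl6, a synthetase known from brain and muscle, was listed at 0 in the 3 Myod1-/- libraries and at 0.807, 0.962 and 0.984 FPKM in the WT libraries. Pnpla3, a lipase relative that sits on lipid droplets, was at 0.00923, 0.0868 and 0 FPKM in Myod1-/- libraries and at 0.520, 0.473 and 0.459 FPKM in WT libraries. Acot1, a thioesterase close to Acot2 in sequence, was at 0.153, 0.0724 and 0.0920 FPKM in Myod1-/- libraries and at 0.513, 0.495 and 0.491 FPKM in WT libraries. Ehhadh, a peroxisomal enzyme, ran the other way, at 0.170, 0.129 and 0.124 FPKM in Myod1-/- libraries and 0.0410, 0.0506 and 0.0452 FPKM in WT libraries. Ppara, the PPAR of liver and oxidative muscle, was at 0 to 0.0298 FPKM in Myod1-/- and 0.0242 to 0.0641 FPKM in WT libraries, levels at which a difference was not detectable.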
